A study of Homo sapiens with 16 samples.

Results

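The mRNAs described here belong to the response of a cell to misfolded protein and amino acid shortage: ATF4, 14 genes of its transcriptional programme, and 19 genes of the unfolded protein response of the endoplasmic reticulum (ER). They were chosen by symbol and by an abundance of at least 1 CPM (read count scaled to library size), and 34 of the 34 listed genes met that minimum, out of 60564 genes in the table and 16241 tested. The 15 genes of the ATF4 arm were 6 regulators (ATF4, DDIT3, CEBPG, TRIB3, SESN2, CHAC1), 5 enzymes of amino acid and one-carbon metabolism (ASNS, PSAT1, PHGDH, SHMT2, MTHFD2), 3 transporter chains (SLC7A11, SLC7A5, SLC3A2) and the lipoprotein receptor VLDLR. The 19 genes of the ER arm were 3 stress sensors with XBP1 (ERN1, EIF2AK3, ATF6, XBP1), 11 folding factors (HSPA5, HSP90B1, DNAJB9, DNAJC3, PDIA4, PDIA6, CALR, CANX, SDF2L1, CRELD2, MANF) and 4 genes of ER-associated degradation (HERPUD1, SEL1L, SYVN1, EDEM1).

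The study used SLAM-seq, which reads new RNA by its 4-thiouridine label, to follow RNA turnover in THP-1, an established human monocytic leukaemia line. One genotype was wild type and served as the control, and the other was a knockdown of ALKBH5 (A5-KD), an enzyme that removes the m6A methyl mark from RNA. Cells of both genotypes were given 100 µM of the nucleoside 4-thiouridine for 1 h, washed, and chased in 10 mM uridine for 0, 1.5, 4.5 or 7.5 h. Each of the 8 groups had 2 libraries of polyadenylated RNA, 16 in all. The labels do not say whether replicates came from separate cultures. The p-values therefore measure the spread between these libraries, which may not cover that between cultures. The labels also do not say how the knockdown was made or whether it is 1 clone. The value per gene and library was taken to be the T-to-C conversion rate, in percent: the share of a transcript's T bases that were sequenced as C. It marks RNA made during the pulse. It declines when labelled molecules decay or are diluted by new unlabelled ones, and it does not measure abundance. Table columns were assigned to the knockdown by elimination, since the other columns carry the initial of the control. A library without 4-thiouridine was not analysed here, so the background rate of mismatches was not measured.

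As background, unfolded protein in the ER activates 3 membrane sensors. EIF2AK3 (PERK) phosphorylates the translation factor eIF2, which lowers general protein synthesis while ATF4 mRNA is translated more; ERN1 (IRE1) splices XBP1 mRNA to the form that encodes an active transcription factor; and ATF6 moves to the Golgi, where its cytosolic part is released to the nucleus. ATF4 drives genes of amino acid supply and redox balance and, when stress persists, DDIT3 (CHOP). XBP1 and ATF6 drive chaperones and degradation factors, many through the ER stress response element (ERSE) in their promoters.

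Those promoter elements are shown first because the genes that hold them are set beside their slopes later. Promoters of 300 bases, from 250 before the start site to 50 after it, were matched for 32 of the 34 members in RefSeq on GRCh38.p14. SHMT2 and SLC7A11 had no entry. ERSE, searched on both strands as CCAAT and CCACG with 9 bases between them, was in 7 of the 32 (CALR, CANX, CRELD2, HSP90B1, HSPA5, PDIA6 and XBP1), against 0.162% of the 9850 tested genes with a promoter and 0.0769% of all 35116 promoter windows. ERSE-II, ATTGG and CCACG with 1 base between them, was in 2 more (HERPUD1 and SDF2L1), against 0.142% of tested genes. By role, ERSE was in 6 of the 11 folding factors and 0 of the 13 ATF4-arm genes with a promoter. ERSE is the site at which ATF6 and XBP1 are known to act, and in these lines the matched letters are in capitals on the strand of the gene. The windows are chr9:125241366-125241434 for HSPA5, chr2:10812828-10812896 for PDIA6, chr22:28800578-28800646 for XBP1, chr12:103930191-103930259 and chr12:103930296-103930364 for the 2 sites of HSP90B1, chr19:12938359-12938427 for CALR and chr16:56932000-56932060 for HERPUD1.
HSPA5: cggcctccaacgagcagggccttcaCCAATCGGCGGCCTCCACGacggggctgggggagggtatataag
PDIA6: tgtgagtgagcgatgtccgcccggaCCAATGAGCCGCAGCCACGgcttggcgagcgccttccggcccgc
XBP1: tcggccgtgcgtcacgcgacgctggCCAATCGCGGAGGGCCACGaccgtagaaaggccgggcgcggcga
HSP90B1 upstream site: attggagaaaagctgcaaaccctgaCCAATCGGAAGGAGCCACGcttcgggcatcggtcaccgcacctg
HSP90B1 downstream site: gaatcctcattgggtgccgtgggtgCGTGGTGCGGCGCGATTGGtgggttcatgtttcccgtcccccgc
CALR: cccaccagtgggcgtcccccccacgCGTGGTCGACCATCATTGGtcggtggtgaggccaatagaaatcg
HERPUD1: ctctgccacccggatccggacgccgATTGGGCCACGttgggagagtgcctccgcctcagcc
HSPA5, HSP90B1 (first site), PDIA6 and XBP1 carry the element in the direction of the gene, and CALR and the second HSP90B1 site carry it reversed. In XBP1 and HSPA5, both on the minus strand of their chromosomes, the element begins at −52 and −66 relative to the start site.

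The letters of the ATF4 composite element (TGATGNAAN, both strands), a half-site of a C/EBP and an ATF protein, were in 5 of the 32 promoters, against 3.07% of tested genes. ASNS, CEBPG, CHAC1 and SLC3A2 belong to the ATF4 arm and HERPUD1 to the ER arm. None of the 32 held the stricter TGATGCAAT (0.162% of tested genes) or the XBP1 element TGACGTGG (1.18%); this says only that those letters are not in these windows. Matches are shown for CEBPG (chr19:33374046-33374104), ASNS (chr7:97872443-97872501) and CHAC1 (chr15:40953236-40953294), the last on the opposite strand.
CEBPG: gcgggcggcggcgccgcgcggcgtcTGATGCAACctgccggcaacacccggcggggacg
ASNS: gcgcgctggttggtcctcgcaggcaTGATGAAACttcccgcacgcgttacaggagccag
CHAC1: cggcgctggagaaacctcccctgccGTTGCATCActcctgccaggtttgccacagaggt

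The cells and the target were checked first. Monocytic markers were present, 7 of 8 at a CPM of at least 1 with LYZ at 1276, while 2 of 12 markers of other cell types reached 1 and 4 (HBB, HBA1, CD3D, MS4A1) were at 0. Over the 16 libraries, the median rate of the tested genes ran from 0.250% to 0.556% in control and from 0.532% to 1.19% in knockdown, and depth per library is unknown. ALKBH5 itself ranged from 0.0982% to 0.812% in control and from 0.108% to 3.31% in knockdown; a rate does not show how much ALKBH5 RNA was present, so it does not test the knockdown. In bulk samples, fewer cells of a type and less RNA per cell cannot be told apart, and here a rate is the average over all cells of a library.

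ATF4, the transcription factor that names the pathway, is encoded at chr22:39519695-39522685 of GRCh38. Its conversion rate in the 2 control libraries was 0.674% and 0.783% with no chase, 0.421% and 0.414% after 1.5 h, 0.265% and 0.305% after 4.5 h and 0.225% and 0.13% after 7.5 h. In the 2 knockdown libraries it was 2.03% and 1.86% with no chase, 1.57% and 1.78% after 1.5 h, 0.771% and 0.864% after 4.5 h and 0.481% and 0.403% after 7.5 h. The knockdown libraries were above the control libraries at every time, and in both genotypes the 7.5 h values lay below all earlier ones. DDIT3 (chr12:57516588-57521737), which encodes CHOP, had control rates of 0.931% and 1.11% with no chase, 0.497% and 0.605% after 1.5 h, 0.271% and 0.339% after 4.5 h and 0.136% and 0.28% after 7.5 h. Its knockdown rates were 2.18% and 2.38% with no chase, 1.53% and 1.83% after 1.5 h, 0.603% and 0.749% after 4.5 h and 0.325% and 0.324% after 7.5 h. The mean at the end of the chase was 20.4% of that at its start in control and 14.2% in knockdown. CEBPG, a C/EBP protein that pairs with ATF4, had control rates of 1.03% and 0.724% with no chase, 0.694% and 0.728% after 1.5 h, 0.563% and 0.367% after 4.5 h and 0.149% and 0.155% after 7.5 h. In knockdown CEBPG read 2.49% and 2.31% with no chase, 1.67% and 2.18% after 1.5 h, 0.927% and 1.13% after 4.5 h and 0.435% and 0.459% after 7.5 h. As with ATF4 and DDIT3, its groups did not overlap between genotypes at any time.

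XBP1 (chr22:28794555-28800597), the target of ERN1 splicing, had similar control rates at the first pair of times and lower ones after that. Its control rates were 0.611% and 0.708% with no chase, 0.621% and 0.724% after 1.5 h, 0.184% and 0.314% after 4.5 h and 0.137% and 0.239% after 7.5 h. Its knockdown rates were 2.16% and 1.61% with no chase, 1.68% and 1.69% after 1.5 h, 0.98% and 1.01% after 4.5 h and 0.516% and 0.408% after 7.5 h. SLC3A2, the heavy chain shared by the amino acid transporters SLC7A5 and SLC7A11, was below its starting values by 1.5 h in control and not in knockdown. The control values were 0.67% and 0.834% with no chase, 0.488% and 0.422% after 1.5 h, 0.282% and 0.311% after 4.5 h and 0.323% and 0.225% after 7.5 h. The knockdown values were 1.28% and 1.54% with no chase, 1.54% and 1.41% after 1.5 h, 0.826% and 0.731% after 4.5 h and 0.523% and 0.478% after 7.5 h. Its mean at 1.5 h was 60.5% of that at 0 h in control and 105% in knockdown, a contrast that was not tested on its own.

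Most of the folding factors shown here had other courses than those genes. HSPA5 (chr9:125234853-125241330) encodes BiP, the ER Hsp70 and the usual gauge of ER stress. In control its rate stayed near one level, 0.306% and 0.307% with no chase, 0.363% and 0.299% after 1.5 h, 0.286% and 0.318% after 4.5 h and 0.23% and 0.301% after 7.5 h. In knockdown it was highest in the middle of the chase, 0.796% and 0.788% with no chase, 1.10% and 0.902% after 1.5 h, 0.988% and 1.00% after 4.5 h and 0.659% and 0.71% after 7.5 h. HSP90B1, the ER Hsp90 (GRP94) and the most abundant member at a CPM of 429.9, had its higher values late in the chase. Its control rates were 0.178% and 0.18% with no chase, 0.204% and 0.257% after 1.5 h, 0.21% and 0.237% after 4.5 h and 0.235% and 0.302% after 7.5 h. Its knockdown rates were 0.534% and 0.463% with no chase, 0.552% and 0.516% after 1.5 h, 0.74% and 0.705% after 4.5 h and 0.574% and 0.59% after 7.5 h. Both 7.5 h libraries exceeded both 0 h libraries in each genotype. PDIA6, a protein disulfide isomerase, did the same, at 0.198% and 0.177% with no chase, 0.165% and 0.205% after 1.5 h, 0.251% and 0.217% after 4.5 h and 0.293% and 0.263% after 7.5 h in control. In knockdown PDIA6 read 0.505% and 0.484% with no chase, 0.466% and 0.463% after 1.5 h, 0.498% and 0.6% after 4.5 h and 0.529% and 0.523% after 7.5 h.

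Calreticulin (CALR) and calnexin (CANX) are the lectin chaperones that bind glycoproteins, 1 soluble and 1 in the membrane. CALR in control gave 0.174% and 0.289% with no chase, 0.198% and 0.263% after 1.5 h, 0.177% and 0.203% after 4.5 h and 0.224% and 0.239% after 7.5 h, with no order by time. In knockdown CALR gave 0.461% and 0.44% with no chase, 0.497% and 0.619% after 1.5 h, 0.621% and 0.568% after 4.5 h and 0.596% and 0.627% after 7.5 h, and each later library was above both 0 h libraries. CANX in control gave 0.325% and 0.283% with no chase, 0.268% and 0.192% after 1.5 h, 0.224% and 0.207% after 4.5 h and 0.257% and 0.249% after 7.5 h. In knockdown CANX gave 0.987% and 0.813% with no chase, 0.629% and 0.549% after 1.5 h, 0.575% and 0.638% after 4.5 h and 0.588% and 0.688% after 7.5 h, highest at 0 h. MANF, a secreted protein that stabilises BiP complexes, gave 0.209% and 0.308% with no chase, 0.343% and 0.444% after 1.5 h, 0.352% and 0.281% after 4.5 h and 0.3% and 0.121% after 7.5 h in control. MANF in knockdown gave 0.735% and 0.69% with no chase, 1.14% and 0.907% after 1.5 h, 1.06% and 1.00% after 4.5 h and 0.603% and 0.92% after 7.5 h, with the middle times above both 0 h libraries. DNAJC3 (p58IPK), a co-chaperone of BiP that also inhibits EIF2AK3, had a control rate of 0.657% and 0.753% with no chase, 0.658% and 0.694% after 1.5 h, 0.448% and 0.43% after 4.5 h and 0.151% and 0.28% after 7.5 h. In knockdown DNAJC3 gave 1.69% and 1.49% with no chase, 1.48% and 1.54% after 1.5 h, 0.958% and 0.935% after 4.5 h and 0.477% and 0.427% after 7.5 h, and both genotypes were lowest at 7.5 h.

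**Figure D1:**
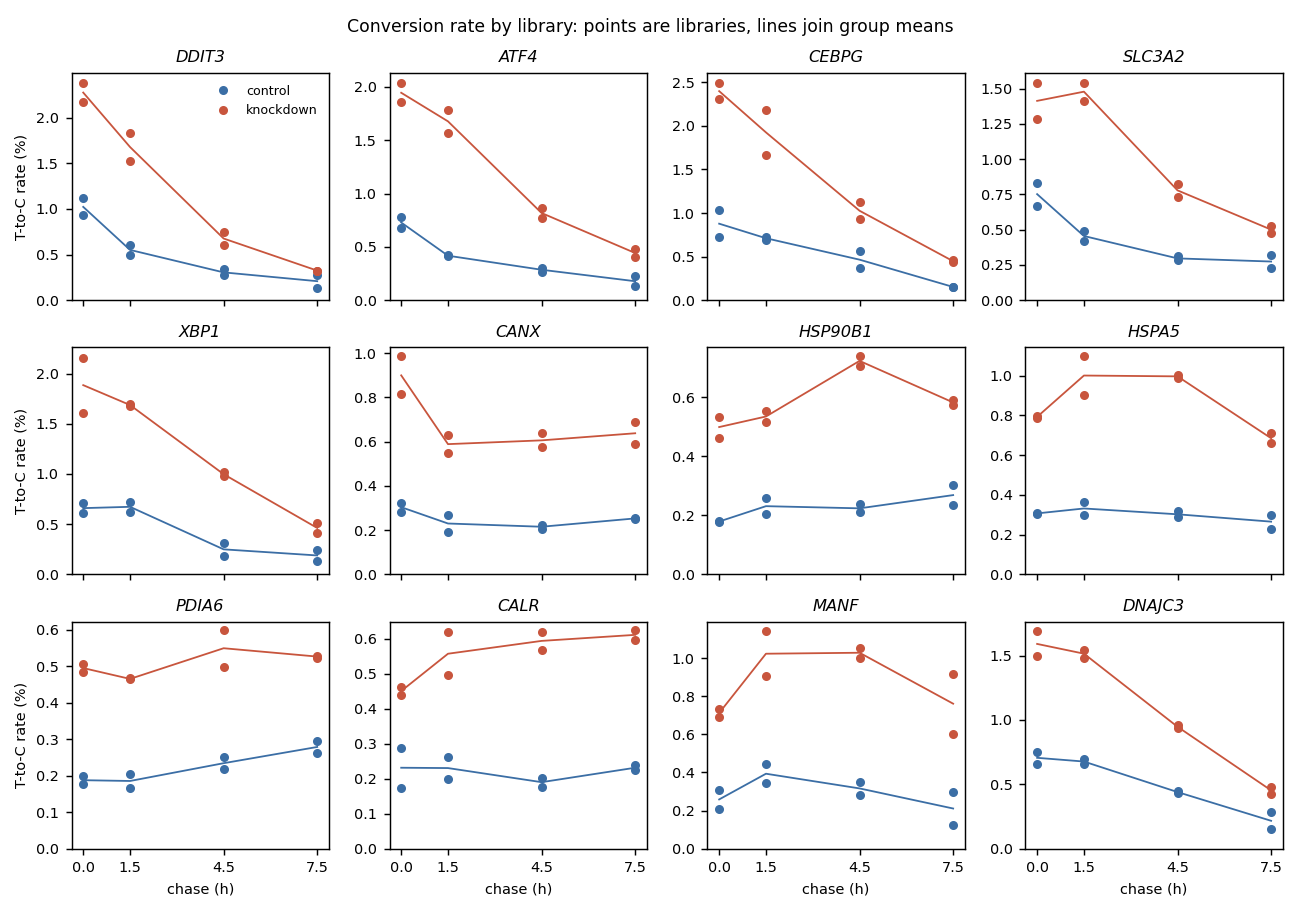
T-to-C conversion rate in percent (vertical axis, from 0, scaled per gene) against hours of chase for the 12 members with the smallest p in any comparison; each point is 1 library, and lines join the means of 2 libraries for control (blue) and knockdown (red). DDIT3, ATF4, CEBPG, SLC3A2, XBP1 and DNAJC3 fell towards 7.5 h in both genotypes, while HSP90B1 and PDIA6 ended above their 0 h values.

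The first comparison asked whether the genotypes differed in rate over the chase as a whole. Of the 34 members, 31 had a higher rate in knockdown by limma at an adjusted p of 0.05, and the median difference of the 34 was 1.11 log2. Across all tested genes 69.6% were called higher (11297) and 0.172% lower (28), with a median of 1.02, so the members' count stood beside a shift of most genes. In the ATF4 arm the call was made for 14 of 15, with a median of 1.13, and in the ER arm for 17 of 19, with a median of 1.10. The differences are on the scale log2(rate in percent + 0.05), which understates the change of low rates.

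EIF2AK3, the sensor kinase upstream of ATF4, had the largest difference, 1.65 ± 0.298 (SE; 8 libraries per genotype; adjusted p = 0.000184). SLC7A5, the light chain that carries large neutral amino acids, followed at 1.61 ± 0.219, then ASNS, asparagine synthetase, at 1.54 ± 0.412 and VLDLR at 1.52 ± 0.342. TRIB3, a pseudokinase induced by ATF4 and DDIT3, stood at 1.49 ± 0.300, MANF at 1.47 ± 0.147, ATF4 at 1.44 ± 0.131, XBP1 at 1.42 ± 0.141 and HSPA5 at 1.38 ± 0.089. DDIT3, at 1.07, lay near the median of all tested genes. At the low end of the called genes were SLC7A11, the cystine transporter, at 0.82, ATF6 at 0.82, SHMT2, the mitochondrial serine hydroxymethyltransferase, at 0.79, HERPUD1 at 0.76 and SDF2L1, a cofactor of ER DnaJ proteins, at 0.74. CHAC1, which degrades glutathione, was at 0.68 with an adjusted p of 0.0414, and its call ended in 12 of 24 alternatives, among them leaving out control 0 h replicate 1 or 2 (0.0563 and 0.0929), control 1.5 h replicate 2, control 4.5 h replicate 2, control 7.5 h replicate 1, either knockdown replicate of 0 h or 1.5 h, or knockdown 7.5 h replicate 1. Those that missed the threshold were CRELD2 at 0.51 (adjusted p = 0.0521), DNAJB9 at 0.89 (0.123) and SESN2 at 0.38 (0.333); SESN2 and DNAJB9 were among the least abundant members, at CPM values of 2.35 and 1.77.

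At single times, both knockdown libraries were above both control libraries for 33 of 34 members before the chase, 32 of 34 after 1.5 h and after 4.5 h, and 27 of 34 after 7.5 h. The same held for 71.1%, 74.3%, 68.2% and 58.9% of all tested genes, in the order of the 4 times. SEL1L overlapped at the start, PSAT1 and SESN2 after 1.5 h, HERPUD1 and SESN2 after 4.5 h, and ASNS, CRELD2, EDEM1, HERPUD1, PHGDH and SESN2 at the end. DNAJB9, an ER DnaJ protein that delivers substrates to BiP, was the 1 case in the opposite order: at 7.5 h its control rates of 0.249% and 0.506% exceeded its knockdown rates of 0.145% and 0.0693%. At 0 h, before any chase, 21 of 34 members were called higher (35.6% of all tested genes were), with HSP90B1 at 1.26 ± 0.128 and PDIA6 at 1.20 ± 0.130 having the smallest adjusted p, 5.64e-05 and 8.05e-05. The calls at 0 h were 7 of 15 in the ATF4 arm and 14 of 19 in the ER arm, 9 of them folding factors.

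**Figure D2:**
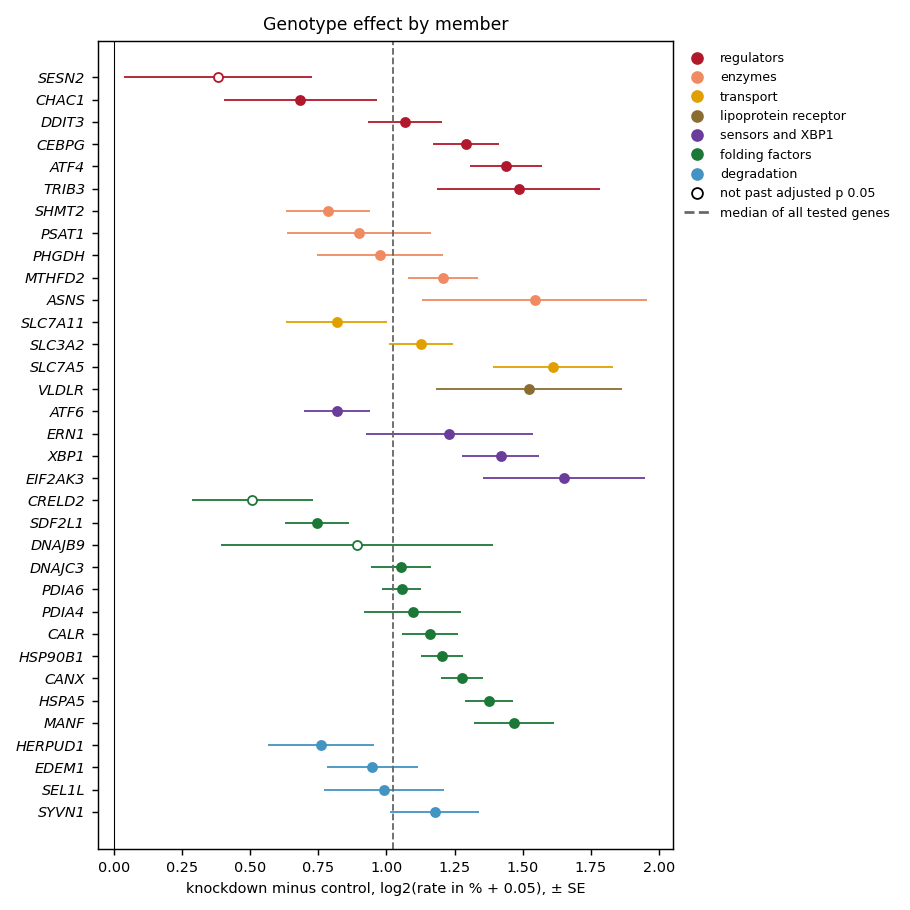
Difference in conversion rate between knockdown and control (horizontal axis, log2 of rate in percent plus 0.05, with SE bars) for each of the 34 members, coloured by role; open circles did not pass an adjusted p of 0.05 and the dashed line is the median of all tested genes, 1.02. Members lie on both sides of that line, from SESN2 at 0.38 to EIF2AK3 at 1.65.

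Because most genes were higher in knockdown, each library was also centred on its own median log2 rate, which removed a common 1.05 log2 from the genotype difference. After centring, 1 member was called: HSPA5 was higher in knockdown by 0.33 ± 0.083 (adjusted p = 0.0301), with 1.45% of all tested genes called higher and 4.59% lower. That call ended in 10 of 25 alternatives and turned to −0.36 in 1, with no CPM minimum; leaving out any of control 1.5 h replicate 2, control 4.5 h replicate 1 or 2, control 7.5 h replicate 1, knockdown 1.5 h replicate 1, knockdown 4.5 h replicate 1 or 2, or knockdown 7.5 h replicate 2 ended it, with adjusted p from 0.0514 to 0.0698. ATF4 was next, at 0.39 ± 0.123 (0.0796), followed by CANX at 0.23 (0.109), XBP1 at 0.37 and MANF at 0.42 (both 0.13). The lowest centred values among members were SESN2 at −0.67, CRELD2 at −0.54, CHAC1 at −0.37 and SDF2L1 at −0.31, none past the threshold. The 34 centred values had a median of 0.06, with 21 above 0 and 13 below, beside −0.02 for all tested genes.

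The second comparison asked how fast the rate of each mRNA fell, as a slope in log2 per hour over the 8 libraries of a genotype. In control, 15 of 34 members fell and 1 rose; 34.4% of all tested genes fell and 3.45% rose. The median slope was −0.14 for the members and −0.11 for all tested genes. The 34 members lay on both sides of the typical gene and are given here by role.

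Regulators fell in 4 of 6 cases. CEBPG (−0.29 ± 0.034, adjusted p = 9.89e-06), DDIT3 (−0.27 ± 0.031, 9.08e-06) and ATF4 (−0.22 ± 0.031, 3.97e-05) kept their calls in all alternatives run. CHAC1 at −0.29 ± 0.076 (0.0072) lost its call without control 7.5 h replicate 1 (adjusted p = 0.0523). TRIB3 at −0.16 and SESN2, which signals low leucine to mTORC1, at −0.15 did not pass (0.101 and 0.185).

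All 4 genes of the sensor group fell in control. EIF2AK3 had the steepest slope of any member, −0.35 ± 0.087 (0.00467), then XBP1 at −0.24 ± 0.037 (9.39e-05), ERN1 at −0.24 ± 0.079 (0.0244) and ATF6 at −0.13 ± 0.029 (0.00196). The ERN1 call was lost when control 0 h replicate 1, control 0 h replicate 2 or control 7.5 h replicate 1 was left out. The EIF2AK3, ERN1 and ATF6 calls were lost without the 0 h libraries.

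The 3 transporter chains fell as well: SLC7A11 at −0.23 ± 0.045 (0.000861), SLC7A5 at −0.20 ± 0.062 (0.0195) and SLC3A2 at −0.17 ± 0.029 (0.000345). SLC7A5 depended on control 7.5 h replicate 1, without which it was no longer called. Of the 5 enzymes, MTHFD2, a mitochondrial folate enzyme, fell at −0.12 ± 0.033 (0.0114), also no longer called without control 7.5 h replicate 1 or without the 0 h libraries. The serine pathway enzymes PSAT1 (−0.13, adjusted p = 0.103) and PHGDH (−0.11, 0.181), together with ASNS (−0.16, 0.225), did not pass, and ASNS was listed at 0 in control 7.5 h replicate 2. SHMT2 had a slope of 0.08 ± 0.040 (0.115).

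Among the 11 folding factors, DNAJC3 fell at −0.21 ± 0.032 (9.74e-05) and PDIA6 rose at 0.07 ± 0.017 (0.00451), both in all alternatives run. PDIA4 at 0.10 ± 0.044 and HSP90B1 at 0.05 ± 0.021 had the next highest slopes (0.0791 and 0.0738). The other 7 ran from −0.10 (DNAJB9) to 0.00 (CRELD2) without passing. Of the degradation genes, HERPUD1, an ERAD scaffold, fell at −0.18 ± 0.042 (0.00322) and SEL1L, partner of the ubiquitin ligase SYVN1, at −0.16 ± 0.054 (0.0272). The SEL1L call did not hold without control 0 h replicate 1, control 1.5 h replicate 2 or control 7.5 h replicate 1, and neither the HERPUD1 nor the SEL1L call held without the 0 h libraries. SYVN1 (−0.08) and the mannosidase-like EDEM1 (−0.03) did not pass.

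In knockdown, 14 of 34 members fell, with 37.9% of all tested genes falling and 4.06% rising, and 0 members rose by limma (1 member, at an unadjusted p under 0.05). The median slope was −0.11 for the members and −0.13 for all tested genes. DDIT3 at −0.36 ± 0.031 (5.22e-07), CEBPG at −0.31 ± 0.034, ATF4 at −0.28 ± 0.031 and CHAC1 at −0.34 ± 0.076 fell again, and SESN2 passed here at −0.26 ± 0.084 (0.0206). SESN2 was no longer called without knockdown 0 h replicate 1 or 2 or knockdown 7.5 h replicate 1. XBP1 (−0.26), ATF6 (−0.20), EIF2AK3 (−0.24, adjusted p = 0.0351), SLC7A11 (−0.27), SLC3A2 (−0.21), DNAJC3 (−0.23) and HERPUD1 (−0.32) fell in this genotype too. The call for EIF2AK3 ended in 8 of 24 alternatives, among them leaving out knockdown 0 h replicate 1 or 2 or knockdown replicate 2 of 1.5 h, 4.5 h or 7.5 h.

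DNAJB9 had the steepest knockdown slope, −0.51 ± 0.096 (0.000502). Its rates there were 1.72% and 2.38% with no chase, 1.54% and 1.68% after 1.5 h, 0.217% and 1.29% after 4.5 h and 0.145% and 0.0693% after 7.5 h, so the 4.5 h libraries differed from each other by 5.96 times. EDEM1 fell at −0.13 ± 0.038 (0.0106), a call lost without knockdown 7.5 h replicate 2. Without the 0 h libraries the knockdown calls of CHAC1, SESN2, EIF2AK3 and EDEM1 were lost. SLC7A5 (−0.08), ERN1 (−0.18), SEL1L (−0.10) and MTHFD2 (−0.08), which had fallen in control, did not pass here, with adjusted p from 0.0696 to 0.324.

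The test of the difference between the slopes called 0 of 34 members and 0 of all tested genes (0% called) by limma. At an unadjusted p under 0.05 there were 2 members, DNAJB9 (−0.41 ± 0.136, knockdown minus control) and HERPUD1 (−0.14 ± 0.060), beside 7.81% of all tested genes. ATF4 differed by −0.06 ± 0.043, DDIT3 by −0.09 ± 0.044, XBP1 by −0.01 ± 0.052 and HSPA5 by −0.00 ± 0.038. These values and errors do not show that the slopes were equal. In all, 11 members fell in both genotypes. The share of all tested genes that fell in both was not counted, so it cannot be set beside this. Among all tested genes 34.4% fell in control and 37.9% in knockdown. As a description over the 34 members, which share libraries within a genotype, the control and knockdown slopes had a Pearson r of 0.739 and a Spearman rho of 0.80, against a Pearson r of 0.518 over all tested genes.

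**Figure D3:**
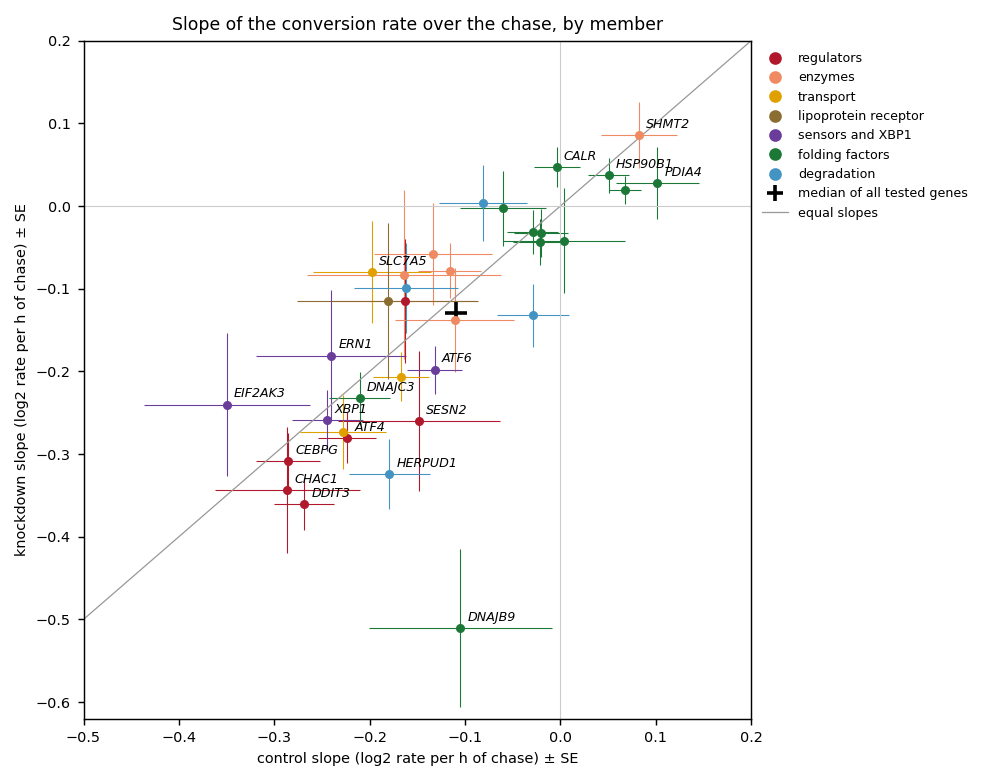
Slope of the conversion rate in log2 per hour in control (horizontal axis) against knockdown (vertical axis), with SE bars, for the 34 members coloured by role; the black cross is the median of all tested genes and the grey line marks equal slopes. Most regulators and sensors lie below and left of the cross, most folding factors above and right of it, and DNAJB9 stands apart at −0.51 in knockdown.

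Relative to the median gene of each library, most folding factors rose and the regulators ATF4, DDIT3 and CEBPG fell. The regulators CHAC1, TRIB3 and SESN2 were not called in either genotype. Centring removed a slope of −0.136 log2 per hour in control and −0.150 in knockdown. In control, 8 members then rose (17.6% of all tested genes did) and 4 fell (9.46%). The 8 were the folding factors PDIA4 (0.24), PDIA6 (0.20), HSP90B1 (0.19), CALR (0.13), SDF2L1 (0.12), HSPA5 (0.11) and CANX (0.11), together with SHMT2 (0.22). The 4 were CEBPG (−0.15), DDIT3 (−0.13), XBP1 (−0.11) and ATF4 (−0.09). SHMT2, HSP90B1, PDIA4, PDIA6 and CALR kept these calls in all alternatives run.

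The falls were less firm. ATF4 lost its centred control call, whose adjusted p was 0.0388, without control 0 h replicate 1 or 2, control 7.5 h replicate 2 or knockdown 1.5 h replicate 1, and XBP1 (0.0274) lost its call without control 0 h replicate 2, control 1.5 h replicate 2 or control 7.5 h replicate 1. With no CPM minimum, the centred control slopes of ATF4, DDIT3 and XBP1 changed sign, while their uncentred control slopes stayed negative in all alternatives run.

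In knockdown, 10 members rose relative to the median gene (17.7% of all tested genes) and 6 fell (8.62%). Those 10 were the same 8 together with MANF (0.15) and SYVN1 (0.15), and the 6 were the same 4 together with DNAJB9 (−0.36) and HERPUD1 (−0.17). By role, 8 of 11 folding factors rose and 1 fell, while 3 of 6 regulators fell. CALR at 0.20 ± 0.022, PDIA6 at 0.17 ± 0.019 and HSP90B1 at 0.19 ± 0.022 had the smallest adjusted p, from 5.51e-06 to 7.97e-06. Several of the others rested on single libraries: CANX, MANF, DNAJB9 and HERPUD1 were not called without knockdown 7.5 h replicate 2, MANF without knockdown 0 h replicate 1 or 2, SYVN1 without knockdown 0 h replicate 2 or knockdown 7.5 h replicate 1, and XBP1 without knockdown 0 h replicate 1 or either knockdown 7.5 h replicate. Without the 0 h libraries the centred calls of ATF4, XBP1, HSPA5 and SDF2L1 were lost in both genotypes, that of DDIT3 in control, and those of CEBPG, PDIA4, MANF, SYVN1, DNAJB9 and HERPUD1 in knockdown.

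The same split was seen in the levels. In every 0 h library, the median rate of the ATF4 arm exceeded that of the folding factors, by 1.91 and 2.55 times in control and by 1.84 and 2.23 times in knockdown. At 7.5 h the order was reversed in all 4 libraries, with ratios of 0.910 and 0.749 in control and 0.862 and 0.922 in knockdown. In between, the control ratios were 1.42 and 1.68 after 1.5 h and 1.31 and 1.42 after 4.5 h, and it lay from 1.08 to 1.26 in the 4 knockdown libraries of those times. The order is given as a description of the medians, with no test. Set against the whole ER arm, sensors and degradation genes included, the ATF4 arm showed the same reversal in control. There the ratio lay from 1.02 to 1.54 in all libraries before 7.5 h, then dropped to 0.910 and 0.747. Knockdown libraries had no such separation by time. Their ratio ran from 1.04 to 1.90 over the first 2 times, with 0.991 and 0.953 after 4.5 h, then 0.840 and 1.20 after 7.5 h.

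The share of the 0 h rate left at 7.5 h, from the median rate of each group, was lowest for the regulators, at 18.9% in control and 19.5% in knockdown. It was 25.7% and 30.4% for the sensors with XBP1, 28.4% and 37.8% for the transporter chains and 51.7% and 37.7% for the degradation genes. The share was 67.6% and 75.1% for the enzymes, and 89.6% and 82.7% for the folding factors. All tested genes stood at 46.0% and 45.1%. The regulators began at the highest rates, with a median of 0.885% in control and 2.07% in knockdown, and the folding factors at the lowest, 0.307% and 0.713%. No background rate was subtracted, and the part of such a background in these shares was not tested.

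**Figure D4:**
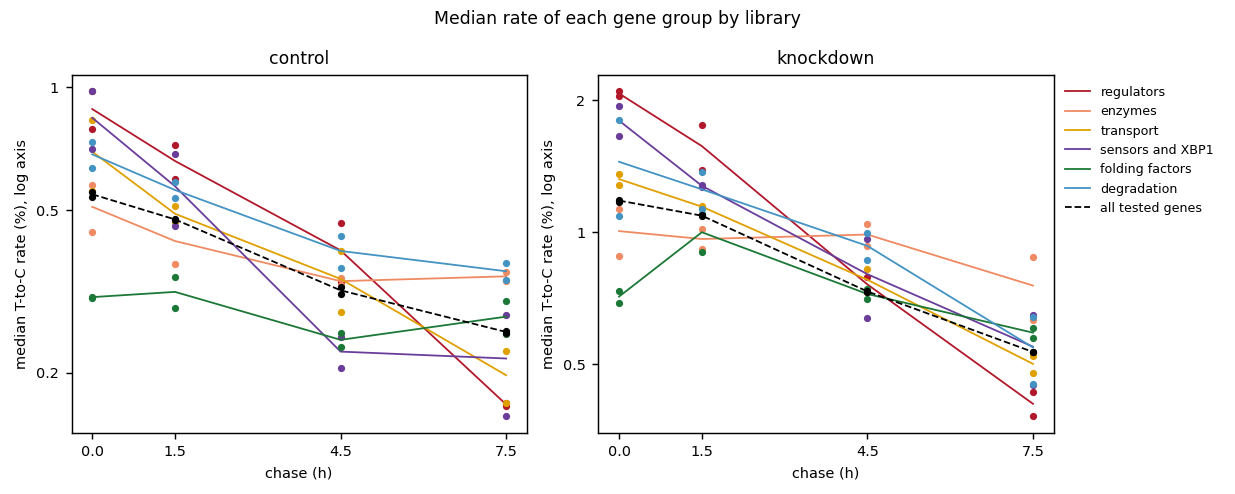
Median conversion rate in percent (vertical, log axis, with a different range in each panel) against hours of chase for 6 roles and for all tested genes (dashed), in control (left) and knockdown (right); points are libraries and lines join the means of 2. Regulators fall from the top to the bottom of each panel, while folding factors start lowest and end above or near the dashed line.

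Single genes spanned a wider range of the 0 h rate left at 7.5 h. In control it ran from 11.7% for EIF2AK3, 14.7% for CHAC1 and 17.3% for CEBPG to 149% for PDIA6, 150% for HSP90B1, 198% for SHMT2 and 201% for PDIA4. The PDIA4 value rests on low rates that overlapped, 0.0719% to 0.144% at 0 h and 0.131% to 0.301% at 7.5 h. Of PDIA6, HSP90B1, SHMT2 and PDIA4, only PDIA6 had an uncentred control slope past the threshold. In knockdown the range was from 5.22% for DNAJB9, 11.4% for CHAC1 and 14.2% for DDIT3 to 136% for CALR and 156% for SHMT2. The mean rate was highest at a later time than 0 h for 8 of 11 folding factors in each genotype. In control 5 of them had their highest mean at 7.5 h, as did 15% of all tested genes. In knockdown 5 had it at 4.5 h, against 14%. Some of these were not clear peaks. The control mean of CALR was 0.231% at both 0 h and 7.5 h, and the control 7.5 h libraries of CRELD2 were 0.438% and 1.09%. In knockdown SDF2L1 had a mean of 1.29% at both 0 h and 4.5 h. The 6 regulators peaked at 0 h in 5 cases in control and in 6 in knockdown, against 48.1% and 49.1% of all tested genes.

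SHMT2 stood apart from the rest of the ATF4 arm. In control its rates were 0.165% and 0.246% with no chase, 0.391% and 0.369% after 1.5 h, 0.342% and 0.329% after 4.5 h and 0.461% and 0.354% after 7.5 h. In knockdown they were 0.689% and 0.328% with no chase, 0.501% and 0.554% after 1.5 h, 0.798% and 0.46% after 4.5 h and 0.88% and 0.704% after 7.5 h, with the 0 h libraries differing from each other. The control libraries after 0 h were all above both 0 h libraries. Its centred slopes of 0.22 ± 0.039 in control and 0.24 ± 0.039 in knockdown were close to those of PDIA4 and HSP90B1.

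The 3′ untranslated regions (UTRs) were examined because AU-rich elements there are known to speed mRNA decay. Each gene was represented by 1 transcript of GENCODE 29 on GRCh38. The AU-rich core TATTTAT, read on the sense strand, was in 12 of 34 members (35.3%) and in 31.3% of 12345 tested coding genes. Of the 12 members with it, 10 fell in control on uncentred rates, and of the 22 without it, 5 fell. Among all tested coding genes, 51.8% of those with the motif fell and 34.6% of those without. In knockdown 8 of the 12 and 6 of the 22 fell, beside 57.6% and 37.7%. On centred rates 1 of the 12 and 3 of the 22 fell in control, beside 16.6% and 8.86% of coding genes with and without the motif. In knockdown 2 of the 12 and 4 of the 22 fell, beside 15.5% and 7.87%. Centring took the same amount from every slope of a genotype, so these counts changed while the distance between the slopes did not. Median member slopes with and without the motif were −0.204 and −0.096 in control before centring, and −0.069 and 0.039 after it. In knockdown they were −0.215 and −0.051 before, and −0.065 and 0.099 after. Uncentred medians of coding genes were −0.17 and −0.11 in control, and −0.20 and −0.12 in knockdown. The members that rose on centred rates, 8 in control and 10 in knockdown, were all without the motif. Of coding genes, 9.72% with the motif and 19.0% without it rose in control, and 8.48% and 19.2% in knockdown. The members with the motif had longer 3′ UTRs, a median of 3641 bases against 799.5, as did all coding genes with it, 2383 against 626, and the part of length in these counts was not tested.

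These sites are shown for members that fell in at least 1 genotype, with the motif in capitals. They lie 176 bases after the stop codon in DDIT3, 196 in CHAC1, 876 in EIF2AK3, 1285 in DNAJC3 (the first of its 2 sites, the other at 3939) and 1422 in DNAJB9.
DDIT3: gattgtacattTATTTATtactgtcccta
CHAC1: acttgaaacttTATTTATtgcaccatgtt
EIF2AK3: tgtttatgtttTATTTATaaaaattctga
DNAJC3: agaatattgaaTATTTATggcactcttga
DNAJB9: ttattctgttaTATTTATgtaacttattt
ATF4, CEBPG, XBP1, SLC3A2 and HERPUD1 fell in both genotypes without the motif; ATF4 has a 3′ UTR of 81 bases. DNAJC3 and DNAJB9 were the 2 folding factors with the motif and the only folding factors called falling in either genotype on uncentred rates. The shorter ATTTA was in 70.6% of members and 67.7% of coding genes. GGACT, 1 form of the m6A consensus, had a median of 3 copies per transcript in both.

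**Figure D5:**
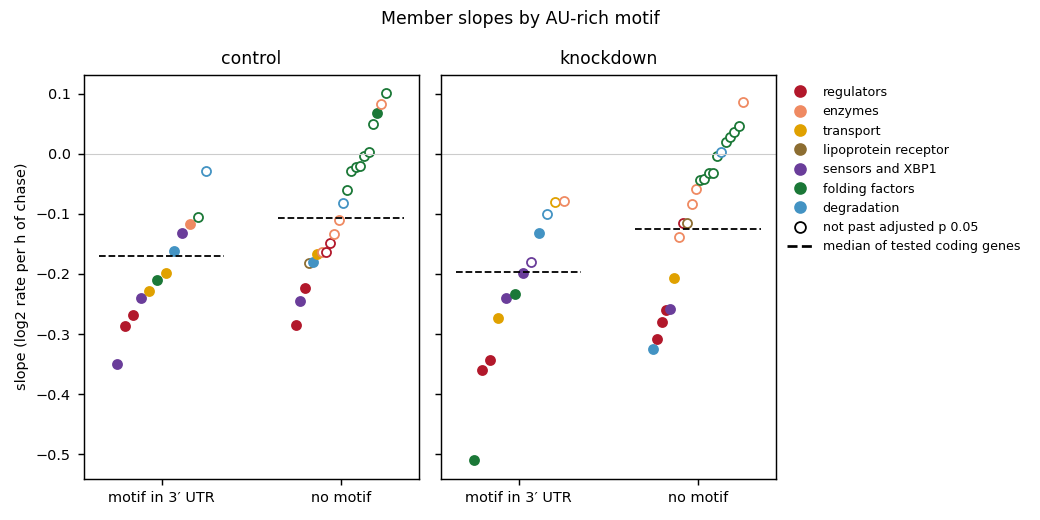
Slope of the conversion rate in log2 per hour (vertical axis) in control (left) and knockdown (right) for members with and without the AU-rich motif in the 3′ UTR, ordered by slope and coloured by role; filled circles passed an adjusted p of 0.05 and dashed lines are the medians of tested coding genes of the same kind. On these uncentred rates 10 of 12 members with the motif and 5 of 22 without it fell in control. On centred rates 1 of 12 and 3 of 22 did, though centring moves all slopes of a panel by the same amount.

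Promoter type and slope can be set side by side in the same way. Of the 9 members with ERSE or ERSE-II, 6 rose on centred rates in control and 6 in knockdown. Of the 23 with a promoter but neither element, 1 and 3 rose. Among all tested genes 17.6% and 17.7% rose, and the slopes of other genes with these elements were not counted. The exceptions among the 9 were XBP1 and HERPUD1, both of which fell on uncentred rates in both genotypes, and CRELD2, with centred slopes of 0.14 and 0.11 (adjusted p = 0.094 and 0.197). Since 7 of the 9 are folding factors, element and role cannot be told apart here.

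Further genes of both pathways were taken from lists of textbook members. Of 22 further genes of the integrated stress response, 20 were tested, 18 were higher in knockdown, and 11 fell in control and 11 in knockdown. Of 31 further genes of the ER response, 30 were tested, 27 were higher in knockdown, 11 fell and 1 rose in control, and 11 fell and 1 rose in knockdown. Among all tested genes 69.6% were higher in knockdown, 34.4% fell in control and 37.9% in knockdown, so the share of ER genes that fell was near that of all genes. SLC38A2, an amino acid transporter under ATF4, fell at −0.34 ± 0.033 in each genotype, and PPP1R15A (GADD34), which reverses eIF2 phosphorylation, at −0.24 ± 0.032 and −0.25 ± 0.032. On centred rates, 10 of the 30 ER genes rose in control, and 8 rose and 2 fell in knockdown, while 17.6% and 17.7% of all tested genes rose and 9.46% and 8.62% fell. Examples were DERL1, part of the ERAD channel, at 0.23 ± 0.029 in control, the ER-Golgi cargo receptor LMAN1 at 0.24 ± 0.046 in control and 0.30 ± 0.046 in knockdown, and SSR1 of the translocon at 0.18 ± 0.030 in both. Of the 20 stress response genes, 2 rose and 2 fell in control, and 3 rose and 2 fell in knockdown. The share of the 0 h rate left at 7.5 h was 33.5% and 43.3% for the stress response genes and 59.7% and 58.2% for the ER genes, in control and knockdown.

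Some values may mix transcripts, since how reads were assigned to genes and strands is not given in the sources used here. DDIT3 overlaps MARS and MBD6 on the opposite strand, DNAJB9 overlaps PNPLA8 and THAP5, and SYVN1 overlaps FAU on its own strand. MTHFD2 has 7 pseudogenes by name, ATF4, ASNS and PSAT1 4 each, SLC7A5 2 and XBP1 1.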

How the data were processed

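SLAM-seq libraries of THP-1 cells, 2 per genotype and time, were compared. The submitters' processing notes list the tools CASAVA and HISAT2 2.1.0 with the hg38 build; the conversion caller is not given in the sources used here. The deposited table holds 1 fraction per gene and library, taken as a T-to-C conversion rate and multiplied by 100, and 1 deposited CPM column whose library is not named, which served to filter and to set the variance trend. Columns starting with S were taken as knockdown by elimination.

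Rates in percent plus 0.05 were put on the log2 scale and modelled in limma 3.58.1 (R 4.3.3). The variance trend followed log2(CPM + 0.01), and p-values were adjusted by Benjamini-Hochberg, threshold 0.05, over the 16241 genes that had both CPM 1 or more and 1 or more libraries above 0. The genotype effect had time as a factor; slopes had an intercept and slope per genotype; 0 h effects came from group means. Centred fits subtracted each library's median log2 rate. Lists are described by counts and medians, with no set test.

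Members and lists were chosen with earlier results of these data known. Values in all libraries are given for the 12 members with the smallest p in any comparison, which include ATF4, DDIT3, XBP1 and HSPA5; those of SHMT2 and DNAJB9 were added after their values were seen, as was the count of falling genes by AU-rich motif. Further pathway genes are named up to 4 per comparison by p. The fits were also run on simulated data, and the outcome is not given here. Depth is unknown, so no counting interval is given. Alternatives varied the pseudocount, CPM minimum, detection filter, trend, weights, times and libraries. The value of 1 marker gene is not reported here.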

Additional observations from a re-analysis of the deposited data

How the results depend on the processing

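For the genotype difference, 30 of 31 called members kept direction and threshold in every alternative run. Centring was not among those alternatives, and the centred genotype difference called 1 member. Direction and threshold were kept by 10 of 14 for the knockdown slope and 8 of 16 for the control slope. The centred control and knockdown slopes kept 5 of 12 and 5 of 16. At 0 h 0 of 21 were kept. There centring was among the alternatives, and it left 0 called by limma (2 at an unadjusted p under 0.05). These counts therefore do not rest on the same set of alternatives. The centred genotype count of 1 became 2 with a pseudocount of 0.2, 2 with array weights, 10 (all lower) with no CPM minimum, 0 without a variance trend (10 unadjusted) and 0 without the 7.5 h libraries (6 unadjusted). The CPM minimum of 5 left 26 higher in knockdown. Without the 0 h libraries the control slope called 10, the centred control slope 7 and the centred knockdown slope 6; with no CPM minimum the centred knockdown slope called 6. The cause was not tested.

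Leaving out 1 library gave 30 to 33 calls for the genotype difference, 0 to 2 centred, 14 to 23 at 0 h, 13 to 17 for the control slope, 10 to 13 centred, 12 to 15 for the knockdown slope, 12 to 18 centred, and 0 for the slope difference (1 to 4 unadjusted). A group left with 1 library was assumed to vary like the others.

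Signs reversed for HSPA5 in the centred genotype difference with no CPM minimum (−0.36). At 0 h after centring they reversed for ATF6 (−0.0446), CALR (−0.18), MTHFD2 (−0.19), SDF2L1 (−0.20), SLC3A2 (−0.17) and SYVN1 (−0.0945). They also reversed for ATF4 (0.0468), DDIT3 (0.0017) and XBP1 (0.0263) in the centred control slope with no CPM minimum. The uncentred control slopes of ATF4, DDIT3 and XBP1 stayed negative in all alternatives run. The cause of the reversals was not tested. Of members not called, 2 of 3 passed in some alternative for the genotype difference, 12 of 33 centred, 6 of 13 at 0 h, 6 of 18 for the control slope and 5 of 20 for the knockdown slope.

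No pairing by replicate number was detected. Correlations of the deviations of same-numbered libraries, taken across all tested genes, ran from −0.024 to 0.040 over 28 pairs of groups. Noise at low rates could hide a shared effect, so this does not exclude pairing. A replicate block gave counts of 31, 1, 21, 16, 12, 14, 16 and 0, the same as without it. Unknown depth limits low rates most: replicates of a member differed by up to 5.96 times where neither was 0.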
